A study of Mus musculus with 12 samples.

Results

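The 42 genes described here encode the machinery that copies DNA and divides the cell, and were selected by gene symbol from a table of 13553 genes measured in mouse macrophages. All 42 symbols had a row, and all 42 passed the filter on low values (3 or more of the 12 libraries at 1 CPM or above, where CPM is the read count relative to library size), which kept 12116 genes. The symbols were not selected by a measured value, but they were proposed with earlier results of these data known. The genes were grouped by role: origin licensing and the replicative helicase (8 genes), the sliding clamp and deoxynucleotide supply (5), regulators of G1 and S phase (6), mitotic kinases and cyclins with their activators (7), the chromosomal passenger complex, spindle checkpoint and kinetochore (7), and spindle motors, cytokinesis, chromosome and mitotic exit genes (9).

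The cells were macrophages grown for a week from the bone marrow of wild-type male C57BL/6 mice in medium with 10 ng/mL M-CSF (CSF1), the growth factor that drives both the differentiation and the proliferation of these cells. The ages of the mice are not given in the sources used here. IL4, a cytokine of type 2 immunity that drives alternative macrophage activation, was added at 20 ng/mL for 24 h, and control cells, called naive, had the same medium without it. After a wash, all-trans retinoic acid (RA), the vitamin A metabolite that activates nuclear RA receptors, was added at 1 µM for 6 h, or its vehicle DMSO alone. The 4 groups are called naive vehicle and naive RA, and, with the cytokine, IL4 vehicle and IL4 RA. They had 3 libraries each, and the titles of the libraries carried the replicate numbers 2, 3 and 4 in every group. The labels do not say whether a number stands for an animal, a culture or a day, so a p-value here compares a difference with the variation among these libraries, which may be technical. RNA was measured in bulk by stranded poly(A) sequencing, and values are log2 CPM scaled by the authors. All members of each list share the same 12 libraries.

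A cell that enters the cycle first makes D and E type cyclins, which with their kinases release E2F factors. E2F targets include the genes that license origins (CDC6, CDT1 and the MCM helicase) and those that supply nucleotides. Later, in G2 and mitosis, a second set of genes driven through MuvB complexes, B-MYB and FOXM1 builds the spindle, and the anaphase-promoting complex with CDC20 and UBE2C then destroys the cyclins. In bone marrow macrophages the cycle depends on CSF1, and transcripts such as Mki67, Top2a and Ccnb1 are used as marks of cells in S, G2 or mitosis.

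Of the 42 genes, 35 were matched to 37 promoters in the RefSeq table (GRCm38.p6, 250 bases before to 50 after the start of transcription). The genes with no entry were Tpx2, Mcm4, Kif20a, Ccnd1, Aurkb, Foxm1 and Ccna2. A cell cycle homology region (CHR, searched as TTTGAA on both strands) occurred in 16 of the 37 promoters (43.2%) against 17.9% of all 32851 promoters in the table. It was found in 4 of 5 promoters of mitotic kinases and cyclins, in 3 of 6 of the passenger complex, checkpoint and kinetochore genes and in 8 of 9 of the motor, cytokinesis and exit genes. In the licensing genes it was found in 1 of 8 promoters, and in the clamp and nucleotide genes in 0 of 5. An E2F-like element (TTNNCGC, both strands) occurred in 22 of the 37 (59.5%, against 20.2% of all promoters), with 7 of 8 licensing promoters and 5 of 5 clamp and nucleotide promoters among them. It was also found in 2 of 4 promoters of the G1 and S regulators, 2 of 5 of the mitotic kinases and cyclins, 2 of 6 of the passenger complex, checkpoint and kinetochore genes and 4 of 9 of the motor, cytokinesis and exit genes. CCAAT boxes (CCAAT, both strands) occurred in 28 of the 37 (75.7%, against 37.4%). These are matches of letters in a window, not sites shown to be bound.

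The promoters of 5 genes that the results below turn on are shown from 200 bases before to 30 after the start, 5′ to 3′ on the strand of the gene, with capitals marking the matches to the 3 elements (overlapping matches run together). Ccnb2 (chr9:70421525-70421754, minus strand), Cdc20 (chr4:118437314-118437543, minus strand) and Ube2c (chr2:164769729-164769958, plus strand) are mitotic genes with a CHR and CCAAT boxes. Mcm5 (chr8:75109309-75109538, plus strand) is a helicase gene with E2F-like elements. Cdk20 (chr13:64432353-64432582, plus strand), the gene with the largest change with RA among the 42, holds 1 E2F-like match and neither of the other elements in this window. That window surrounds a start listed in RefSeq and lies inside the gene as annotated in GENCODE vM21, which begins at 64432314. Sequence before the annotated beginning was almost wholly outside the search.
Ccnb2: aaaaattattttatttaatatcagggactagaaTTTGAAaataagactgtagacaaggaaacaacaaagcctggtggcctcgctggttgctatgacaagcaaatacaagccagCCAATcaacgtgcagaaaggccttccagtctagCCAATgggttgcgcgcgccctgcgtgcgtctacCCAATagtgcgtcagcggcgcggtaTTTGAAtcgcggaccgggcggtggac
Cdc20: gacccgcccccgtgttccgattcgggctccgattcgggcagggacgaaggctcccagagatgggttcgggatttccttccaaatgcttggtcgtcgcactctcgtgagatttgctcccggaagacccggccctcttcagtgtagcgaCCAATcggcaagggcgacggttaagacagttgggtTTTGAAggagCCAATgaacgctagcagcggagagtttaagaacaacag
Ube2c: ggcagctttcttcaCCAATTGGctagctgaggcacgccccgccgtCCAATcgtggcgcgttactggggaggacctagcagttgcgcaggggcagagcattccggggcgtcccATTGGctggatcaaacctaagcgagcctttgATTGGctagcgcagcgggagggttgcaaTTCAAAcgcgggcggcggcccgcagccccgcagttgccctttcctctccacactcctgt
Mcm5: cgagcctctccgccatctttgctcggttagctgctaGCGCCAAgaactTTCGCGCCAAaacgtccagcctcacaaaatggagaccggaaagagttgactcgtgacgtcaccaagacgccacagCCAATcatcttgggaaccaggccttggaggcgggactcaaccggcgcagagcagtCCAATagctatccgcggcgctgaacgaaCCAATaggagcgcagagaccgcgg
Cdk20: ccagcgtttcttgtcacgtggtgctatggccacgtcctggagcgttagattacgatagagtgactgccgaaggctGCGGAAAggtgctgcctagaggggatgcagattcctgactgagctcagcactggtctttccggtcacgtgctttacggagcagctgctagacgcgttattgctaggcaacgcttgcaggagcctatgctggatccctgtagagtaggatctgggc

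The libraries numbered 2 had the highest levels of mitotic transcripts in every group, whatever the treatment. Before any treatment is compared, the values by replicate number are therefore given. The library numbered 2 was the highest of its group in all 4 groups for 31 of the 42 genes, where 4.47% of the 12116 tested genes had this order. These were 7 of 7 mitotic kinases and cyclins, 7 of 7 passenger complex, checkpoint and kinetochore genes, 9 of 9 motor, cytokinesis and exit genes, 4 of 5 clamp and nucleotide genes (all but Pcna), 2 of 8 licensing genes (Mcm5 and Mcm7) and 2 of 6 G1 and S regulators (Ccnd1 and Ccna2). The order with number 3 lowest in all 4 groups was seen for 1 of the 42 genes (2.04% of tested genes), and no member had number 2 lowest (3.9%) or number 4 highest (1.92%) in all 4 groups.

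**Figure D1:**
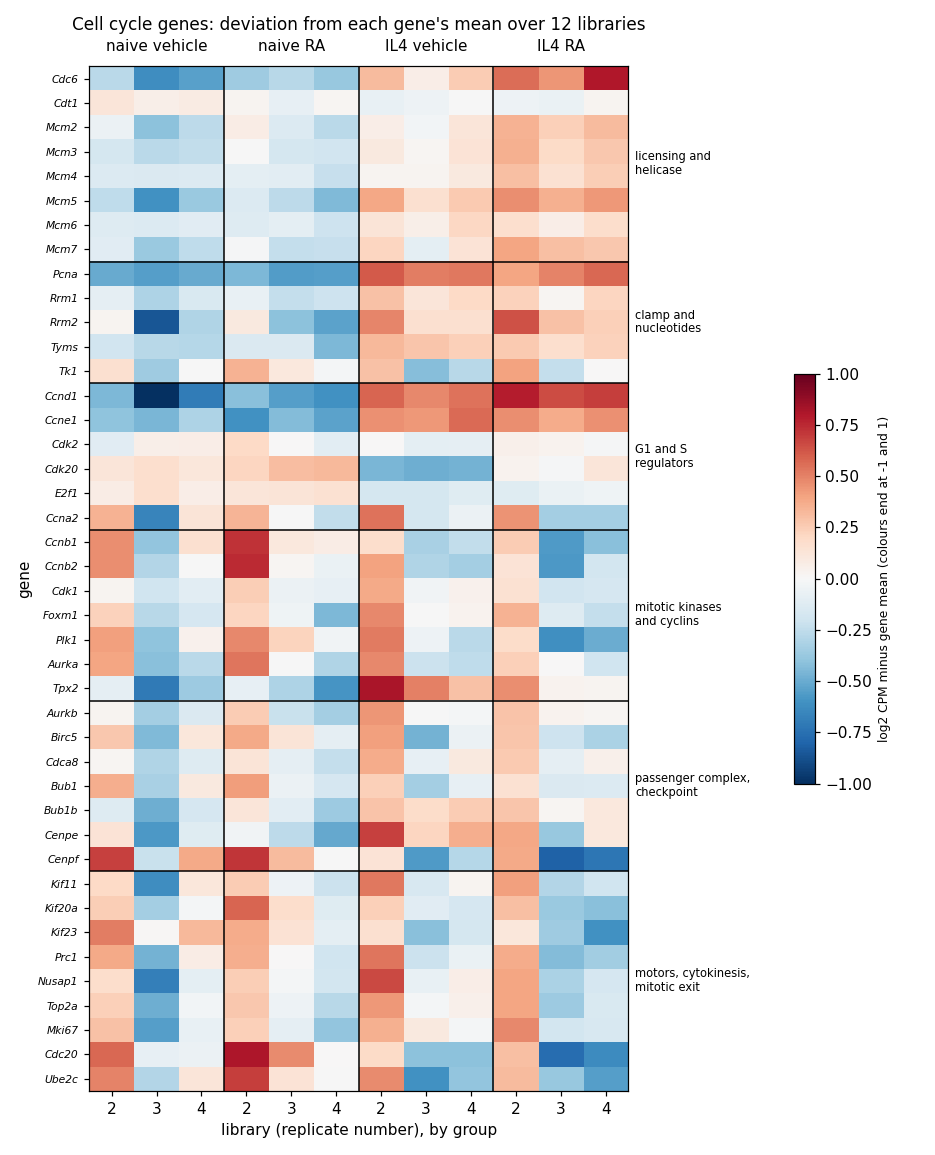
Level of each of the 42 genes (rows, ordered by role) in each of the 12 libraries (columns, labelled with the replicate number), as log2 CPM minus the mean of the gene over the 12 libraries. In the lower rows the column numbered 2 is the reddest of each group, while in the upper rows the IL4 groups stand above the naive groups.

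The genes with the widest range between replicate numbers were Cenpf, Ube2c, Cdc20 and Ccnb2. In the following, 3 values in a row are those of the libraries numbered 2, 3 and 4. Ccnb2, a B type cyclin that activates CDK1 at mitosis, was at 3.35, 2.59 and 2.89 log2 CPM in naive vehicle, 3.63, 2.91 and 2.82 in naive RA, 3.29, 2.59 and 2.54 in IL4 vehicle, and 3.03, 2.31 and 2.70 in IL4 RA. The 4 libraries numbered 2 were above each of the other 8, and the 4 groups overlapped. Over the groups, number 2 exceeded number 3 by 0.72 (log2, SE 0.09, adjusted p = 0.00144) and number 4 by 0.58 (SE 0.09, adjusted p = 0.0127) in limma with group and number as terms.

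Ube2c, the ubiquitin-conjugating enzyme of the anaphase-promoting complex, was at 3.81, 3.02 and 3.43 log2 CPM in naive vehicle, 4.01, 3.45 and 3.31 in naive RA, 3.79, 2.71 and 2.92 in IL4 vehicle, and 3.63, 2.94 and 2.76 in IL4 RA. Again every library numbered 2 was above the other 8. The difference was 0.78 against number 3 (SE 0.10, adjusted p = 0.00204) and 0.70 against number 4 (SE 0.10, adjusted p = 0.00945). Cdc20, the activator that directs this complex to the cyclins, was at 3.18, 2.53 and 2.54 in naive vehicle, 3.41, 3.08 and 2.61 in naive RA, 2.80, 2.19 and 2.19 in IL4 vehicle, and 2.91, 1.84 and 1.98 in IL4 RA. Number 2 was the highest in each group, here with the naive RA library numbered 3 above both IL4 libraries numbered 2. It exceeded number 3 by 0.66 (SE 0.11, adjusted p = 0.00786) and number 4 by 0.74 (SE 0.11, adjusted p = 0.00945). Cenpf, a large kinetochore protein of G2 and mitosis, was at 2.89, 1.99 and 2.59 in naive vehicle, 2.92, 2.53 and 2.21 in naive RA, 2.35, 1.64 and 1.92 in IL4 vehicle, and 2.59, 1.40 and 1.49 in IL4 RA. Its number 2 libraries were the highest of each group, by 0.80 over number 3 (SE 0.14, adjusted p = 0.0128) and by 0.63 over number 4 (SE 0.14, adjusted p = 0.0734).

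Mki67, which encodes the proliferation antigen Ki-67, was at 6.07, 5.22 and 5.70 log2 CPM in naive vehicle, 6.01, 5.69 and 5.38 in naive RA, 6.13, 5.87 and 5.76 in IL4 vehicle, and 6.26, 5.59 and 5.61 in IL4 RA. The number 2 libraries lay above all others, 0.52 over number 3 (SE 0.10, adjusted p = 0.0158) and 0.51 over number 4 (SE 0.10, adjusted p = 0.0404). Cdk1, the kinase that starts mitosis, was at 4.74, 4.52 and 4.61 in naive vehicle, 4.96, 4.66 and 4.63 in naive RA, 5.10, 4.68 and 4.76 in IL4 vehicle, and 4.87, 4.52 and 4.55 in IL4 RA. Its range between numbers was smaller, at 0.32 over number 3 (SE 0.05, adjusted p = 0.00337). Cdca8, the borealin subunit of the passenger complex, was at 3.75, 3.42 and 3.60 in naive vehicle, 3.85, 3.64 and 3.49 in naive RA, 4.09, 3.65 and 3.82 in IL4 vehicle, and 3.99, 3.64 and 3.77 in IL4 RA. Number 2 exceeded number 3 by 0.34 for this gene (SE 0.06, adjusted p = 0.0132). In bulk RNA a larger share of cells in mitosis and more of these transcripts per mitotic cell cannot be told apart.

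**Figure D2:**
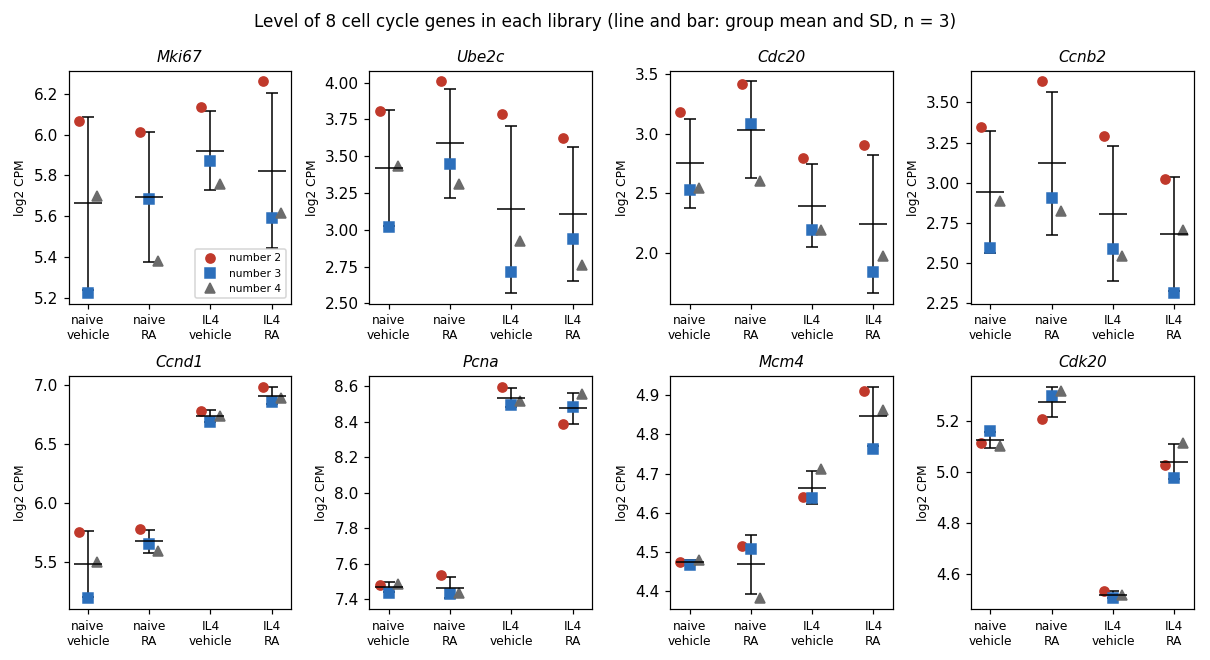
Level in log2 CPM of 8 genes in each of the 12 libraries, by group (horizontal axis), with the replicate number as colour and symbol and the group mean and SD (n = 3) as line and bar. For Mki67, Ube2c, Cdc20 and Ccnb2 the red circles (number 2) top each group, and for Ccnd1 and Pcna every IL4 library lies above every naive library.

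Taken over all genes, an F test of replicate number in the same limma model called 26 of the 42 (adjusted p under 0.05 over all tested genes, here and below), against a background of 2.09%. The 26 were all 7 mitotic kinases and cyclins, 6 of the 7 passenger complex, checkpoint and kinetochore genes (not the checkpoint kinase gene Bub1b), all 9 motor, cytokinesis and exit genes, the ribonucleotide reductase genes Rrm1 and Rrm2, the thymidine kinase gene Tk1, and the S and G2 cyclin gene Ccna2. No licensing gene was called by the F test, though Mcm7 was higher in number 2 than in number 3 (0.22, SE 0.05, adjusted p = 0.0331 in limma). Between numbers 2 and 3, 27 genes were higher in number 2 and 0 lower (background 1.73% higher, 1.06% lower), with a median difference of 0.41 over the 42 genes. Between numbers 2 and 4, 14 were higher and 0 lower (background 0.553% and 0.182%), with a median of 0.37. Between numbers 3 and 4 limma called 0 genes (background 0.107% higher, 0.149% lower), 1 had an unadjusted p under 0.05, and the median was −0.06. The median over all tested genes was within 0.01 of 0 in these 3 comparisons.

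The size followed the role. From number 3 to number 2 the median difference was 0.63 in the motor, cytokinesis and exit genes, 0.57 in the mitotic kinases and cyclins, 0.51 in the passenger complex, checkpoint and kinetochore genes, 0.19 in the clamp and nucleotide genes, 0.14 in the licensing genes and 0.02 in the G1 and S regulators. Ccna2 was the member of the last group that stood with the mitotic genes, at 0.72 (SE 0.12, adjusted p = 0.0112), and its locus overlaps Exosc9 on the opposite strand in GENCODE vM21. Among genes outside the 42, the F test (background 2.09%) called 21 of 55 kinetochore, spindle and cytokinesis genes, all 21 highest in number 2. It called 1 of 50 replication genes, 0 of 20 pocket protein, E2F and MYB genes and 0 of 21 genes of CSF1 signalling. Of the other lists it called 2 of 28 DNA damage and repair genes and 1 of 20 G1 cyclins, CDKs and CDC25 phosphatases, all highest in number 2. It also called 2 of 15 inhibitors and quiescence regulators, 1 of them highest in number 2. With 1 library left out, the number of members called fell, and so did the share of all tested genes called. It was 6 without the naive vehicle library numbered 2 (0.611% of all tested genes) and 10 without the IL4 RA library numbered 2 (1.21%). It was 13 without the naive RA (0.957%) or IL4 vehicle (1.46%) library numbered 2. It was 14 without the IL4 vehicle library numbered 3 (1.03%) or the IL4 RA library numbered 4 (1.06%), and 15 without the IL4 RA library numbered 3 (1.11%). Without all 4 libraries numbered 2, limma called 0 members between numbers 3 and 4 (background 0.38%), with 1 at an unadjusted p under 0.05.

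**Figure D3:**
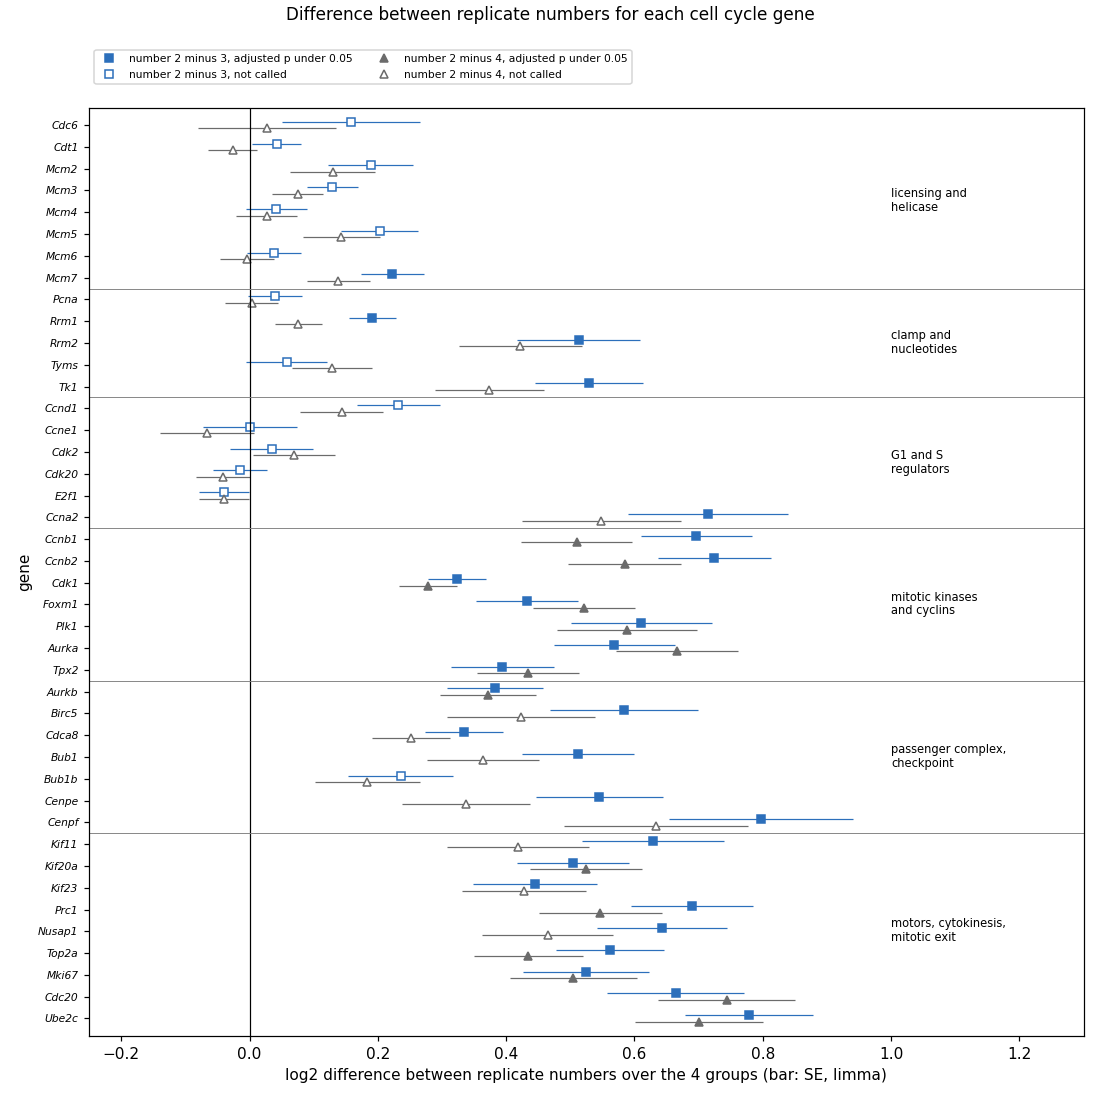
Difference between replicate numbers (horizontal axis, log2, bars are SE) for each of the 42 genes (vertical axis, ordered by role), with filled symbols for an adjusted p under 0.05 in limma. From Ccna2 downwards nearly every point lies between 0.2 and 0.8, while Cdk20, E2f1 and Ccne1 lie near 0. The licensing genes run from −0.03 (Cdt1, number 2 minus 4) to 0.22 (Mcm7, number 2 minus 3, filled).

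Markers of other cells were low in the libraries, and some moved with number 2. The 8 macrophage markers summed to between 20977 and 40873 CPM. The 9 stromal or endothelial markers summed to 53.9 to 77.9 CPM in the libraries numbered 2, 35.0 to 67.8 in those numbered 3 and 47.0 to 68.6 in those numbered 4. Of their genes 3 passed the F test of number, Col1a1, Col1a2 and Dcn, with differences of 0.74, 0.78 and 0.85 between numbers 2 and 3. Col3a1 and Pdgfrb were also higher in number 2 than in number 3 (0.55 and 0.33). Pecam1 and Kdr were lower (−0.17 and −0.21), and none of these passed. The megakaryocyte markers (3 of 5 had a row) summed to 33.1 to 64.3, 23.7 to 56.0 and 20.9 to 45.5 CPM in numbers 2, 3 and 4, and Pf4 passed (0.29), as did the macrophage marker Adgre1 (0.25). Ppbp, the other megakaryocyte marker tested, did not pass (−0.05). Nor did the other macrophage markers, from −0.08 (Fcgr1) to 0.14 (Lyz2). Neutrophil markers (3 of 8) reached 37.0 CPM, myeloid progenitor markers (4 of 9) 12.2 CPM and T or NK cell markers (2 of 7) 2.2 CPM. Of the progenitor list, Kit was higher in number 2 than in number 3 (0.56, SE 0.13, adjusted p = 0.0376), though it did not pass the F test (adjusted p = 0.096). Cd34 and Gfi1 of that list were lower in number 2 than in number 3 (−0.01 and −0.55), and neither passed. No B cell (of 6) or erythroid (of 8) marker had a row. The part of these cells in the differences between numbers was not tested. Estimated depth ranged from 30.52 to 46.6 M reads in number 2, 32.32 to 39.26 in number 3 and 31.77 to 48.15 in number 4, and the least covered member, Cdc6, had about 77 reads in its lowest library.

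With IL4 in vehicle-treated cells, 7 of 8 licensing and helicase genes and 4 of 5 clamp and nucleotide genes rose, while Cdt1 fell. Tk1 and most mitotic genes did not pass the test in the model without replicate number. With replicate number as a block, further mitotic genes passed, some higher and some lower, as given below. Of the 42 genes, 16 were higher and 3 lower in IL4 vehicle than in naive vehicle (background 30.5% higher and 29.6% lower, so that 60.1% of all tested genes were called), and 20 had an unadjusted p under 0.05. The median difference was 0.24 against −0.01 over all tested genes. Increases were found in 7 of 8 licensing and helicase genes, 4 of 5 clamp and nucleotide genes, 2 of 6 G1 and S regulators, 1 of 7 mitotic kinases and cyclins, 2 of 7 passenger complex, checkpoint and kinetochore genes and 0 of 9 motor, cytokinesis and exit genes. The groups did not overlap for 16 genes that were higher and 3 that were lower (33% and 33.3% of all tested genes). Marker levels moved with IL4 too. The macrophage markers summed to 36500 to 40873 CPM in the naive libraries and 20977 to 23634 in the IL4 libraries, the neutrophil markers to 6.99 to 7.90 and 29.2 to 37.0, and the stromal or endothelial markers to 65.8 to 77.9 and 35.0 to 55.7. Macrophage surface and enzyme genes such as Adgre1 (−1.01 in vehicle, adjusted p = 6.56e-07) and Lyz2 (−0.89, adjusted p = 2.02e-06) were lower with IL4. Csf1r, Mertk, Fcgr1 and Cd14 of that list were also lower in every IL4 library than in every naive one. Cd68 (10.28 to 10.41 log2 CPM in naive and 10.29 to 10.45 in IL4 libraries) and Itgam (10.01 to 10.11 and 10.06 to 10.30) were not. Mmp8, of the neutrophil list, was higher (2.57, adjusted p = 5.21e-10). So was S100a8, at 0.55 to 0.96 log2 CPM in naive and 1.61 to 1.98 in IL4 libraries. Camp, which did not pass the filter, was not higher, at −1.26 to −0.18 and −2.16 to −1.03. The part of these levels in the changes of the 42 genes was not tested.

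The largest increase was that of Ccnd1 (chromosome 7, 144929931 to 144939925, GRCm38), the D type cyclin that couples growth factor signals to G1. It was at 5.75, 5.19 and 5.50 log2 CPM in naive vehicle and 6.78, 6.68 and 6.74 in IL4 vehicle. In the RA-treated groups it was at 5.78, 5.65 and 5.59 without IL4 and 6.98, 6.85 and 6.89 with it, so that every IL4 library was above every naive one. The log2 difference was 1.26 in vehicle (2.39-fold, SE 0.10, adjusted p = 2.21e-07) and 1.24 in RA (2.36-fold, SE 0.10, adjusted p = 2.86e-07). Pcna, the sliding clamp of DNA polymerases, was at 7.48, 7.44 and 7.48 in naive vehicle, 7.54, 7.43 and 7.43 in naive RA, 8.60, 8.49 and 8.51 in IL4 vehicle, and 8.38, 8.48 and 8.56 in IL4 RA. The naive and IL4 libraries were more than 0.8 apart, with differences of 1.07 in vehicle (2.10-fold, SE 0.05, adjusted p = 5.4e-10) and 1.01 in RA (2.01-fold, SE 0.05, adjusted p = 1.1e-09). Ccne1, the cyclin that drives CDK2 into S phase, was at 1.99, 1.94 and 2.08 in naive vehicle, 1.79, 1.96 and 1.85 in naive RA, 2.85, 2.83 and 2.96 in IL4 vehicle, and 2.86, 2.76 and 2.85 in IL4 RA. Its groups were as clearly apart, at 0.88 in vehicle (SE 0.08, adjusted p = 8.83e-07) and 0.96 in RA (SE 0.08, adjusted p = 4.19e-07).

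Among the licensing genes, Cdc6, which loads the helicase on origins, was at 1.33, 0.98 and 1.06 log2 CPM in naive vehicle, 1.25, 1.32 and 1.22 in naive RA, 1.92, 1.67 and 1.86 in IL4 vehicle, and 2.16, 2.04 and 2.40 in IL4 RA. It rose with IL4 by 0.69 in vehicle (SE 0.13, adjusted p = 0.00043) and by 0.94 in RA (SE 0.13, adjusted p = 3.52e-05). Mcm6, a subunit of the helicase ring, was at 5.75, 5.74 and 5.77 in naive vehicle, 5.76, 5.78 and 5.67 in naive RA, 6.01, 5.94 and 6.09 in IL4 vehicle, and 6.05, 5.95 and 6.06 in IL4 RA. Its rise was small but larger than the spread, 0.26 in vehicle (SE 0.05, adjusted p = 0.000444) and 0.28 in RA (SE 0.05, adjusted p = 0.000218). Of the other subunits, Mcm5 rose by 0.68 in vehicle and 0.70 in RA, Mcm7 by 0.33 and 0.48, Mcm3 by 0.31 and 0.40, Mcm2 by 0.30 and 0.41, and Mcm4 by 0.19 and 0.38. The call of Mcm2 in vehicle was lost without the naive vehicle library numbered 3 (adjusted p = 0.0764) or the IL4 vehicle library numbered 4 (adjusted p = 0.0569). Cdt1, the partner of CDC6 in loading, went the other way in vehicle. It was at 5.03, 4.97 and 4.99 in naive vehicle and 4.83, 4.86 and 4.91 in IL4 vehicle, a difference of −0.13 (SE 0.05, adjusted p = 0.0288), and at 4.94, 4.83 and 4.93 in naive RA and 4.86, 4.84 and 4.94 in IL4 RA, where the groups overlapped (−0.02, adjusted p above the threshold). The call of Cdt1 was lost without either vehicle library numbered 2 (adjusted p = 0.0907 without the naive and 0.0861 without the IL4 one), without the IL4 vehicle library numbered 3 (0.0721) and without the naive vehicle library numbered 4 (0.0616).

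The genes of deoxynucleotide supply rose in part. Rrm1 and Rrm2, the subunits of ribonucleotide reductase, rose by 0.39 and 0.65 in vehicle and by 0.33 and 0.67 in RA, and Tyms, thymidylate synthase, by 0.53 and 0.47. Tk1, thymidine kinase of the salvage pathway, was at −0.07 in vehicle (SE 0.20) and −0.09 in RA and did not pass. The calls of Rrm2 were lost without 1 library, in vehicle without the naive library numbered 3 (adjusted p = 0.0703) or the IL4 library numbered 2 (0.0645), and in RA without the naive library numbered 4 (0.0584) or the IL4 library numbered 2 (0.0586).

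Among G1 and S regulators the kinase Cdk20 and the transcription factor E2f1 fell with IL4. E2f1 was at 5.05, 5.15 and 5.04 log2 CPM in naive vehicle, 5.10, 5.11 and 5.13 in naive RA, 4.80, 4.80 and 4.86 in IL4 vehicle, and 4.86, 4.91 and 4.93 in IL4 RA. All IL4 libraries were below all naive ones, by 0.26 in vehicle and 0.21 in RA (log2 differences of −0.26, SE 0.04, adjusted p = 0.000189, and −0.21, SE 0.04, adjusted p = 0.00106). Cdk2, the partner of cyclin E, differed by −0.06 in vehicle and −0.01 in RA and did not pass.

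Of the mitotic genes, Tpx2, which activates Aurora A on the spindle, rose most. It was at 4.38, 3.76 and 4.10 log2 CPM in naive vehicle and 5.28, 4.97 and 4.76 in IL4 vehicle, without overlap (0.93, SE 0.18, adjusted p = 0.000516). In RA it was at 4.38, 4.16 and 3.87 without IL4 and 4.93, 4.50 and 4.49 with it, a difference of 0.50 (SE 0.18, adjusted p = 0.027) that was lost without the naive RA library numbered 3 (adjusted p = 0.056) or 4 (0.117) or the IL4 RA library numbered 2 (0.12). The checkpoint kinase gene Bub1b rose in vehicle by 0.50 (SE 0.12, adjusted p = 0.00271) and the kinetochore motor gene Cenpe by 0.61 (SE 0.21, adjusted p = 0.0221), the latter not without the naive vehicle library numbered 3 (adjusted p = 0.103) or the IL4 vehicle library numbered 2 (0.0959).

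Among same-numbered libraries of the 2 vehicle groups the deviations from the group means were correlated (each above 0.1), and with the replicate number as a block 29 of the 42 genes were called in vehicle, 22 higher and 7 lower (background 31.5% and 30.8%). The added calls were Cdk1, Foxm1, Aurkb, Cdca8, Nusap1 and Top2a, higher with IL4 by 0.22 to 0.42, and Cenpf, Kif23, Cdc20 and Ube2c, at differences of −0.52, −0.43, −0.36 and −0.28. Within the numbers 2, 3 and 4 the median change of the 42 genes in vehicle was 0.20, 0.28 and 0.10. Without the 4 libraries numbered 2 the count in vehicle was 23, 18 higher and 5 lower (background 28.4% and 26.5%).

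In RA-treated cells the same comparison gave 14 genes higher and 3 lower with IL4 (background 29% and 26.7%), 20 at an unadjusted p under 0.05, and a median of −0.02 (0.13, −0.09 and 0.11 within the numbers 2, 3 and 4). By role, 7 of 8 licensing genes, 4 of 5 clamp and nucleotide genes, 2 G1 and S regulators (Ccnd1 and Ccne1) and 1 mitotic gene (Tpx2) rose, and Cdk20, E2f1 and Cdc20 fell. The groups did not overlap for 14 genes that were higher and 2 that were lower (31.5% and 29.7% of all tested genes). Cdc20, at the values given above, was lower with IL4 in RA by a difference of −0.79 (0.578-fold, SE 0.29, adjusted p = 0.0312). That call was lost without the naive RA library numbered 2 (adjusted p = 0.117) or 3 (0.0755) or the IL4 RA library numbered 3 (0.131) or 4 (0.113). Ccnb1, Plk1, Cenpf, Kif20a, Kif23, Ube2c and Ccnb2 did not pass in this model without replicate number, with differences from −0.72 to −0.37. Each was lower with IL4 in all 3 numbers, Ccnb1 for example by differences of −0.47, −0.67 and −0.50. This order was seen for 12 of the 42 genes and for 35.8% of all tested genes, so it did not set the 42 apart. Same-numbered libraries of the RA groups correlated at 0.0895 to 0.186 over all tested genes, not all above 0.1, so by the rule the numbers were not taken to pair them. For the mitotic genes number 2 was nonetheless the highest in both RA groups, as given above. With number as a block, 27 genes were called, 17 higher and 10 lower (57.7% of all tested genes were called). The 7 genes just named were those added as lower. Without all 4 libraries numbered 2, 24 genes were called, 15 higher and 9 lower (background 28.3% and 25.9%), among them Ccnb1 (−0.58, adjusted p = 0.00707), Plk1 (−0.65, adjusted p = 0.00548) and Cenpf (−0.92, adjusted p = 0.00278), a mitotic cyclin, a mitotic kinase and the kinetochore protein above. The comparisons of IL4 in vehicle and in RA use separate libraries, and the difference between them is the interaction given at the end.

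**Figure D4:**
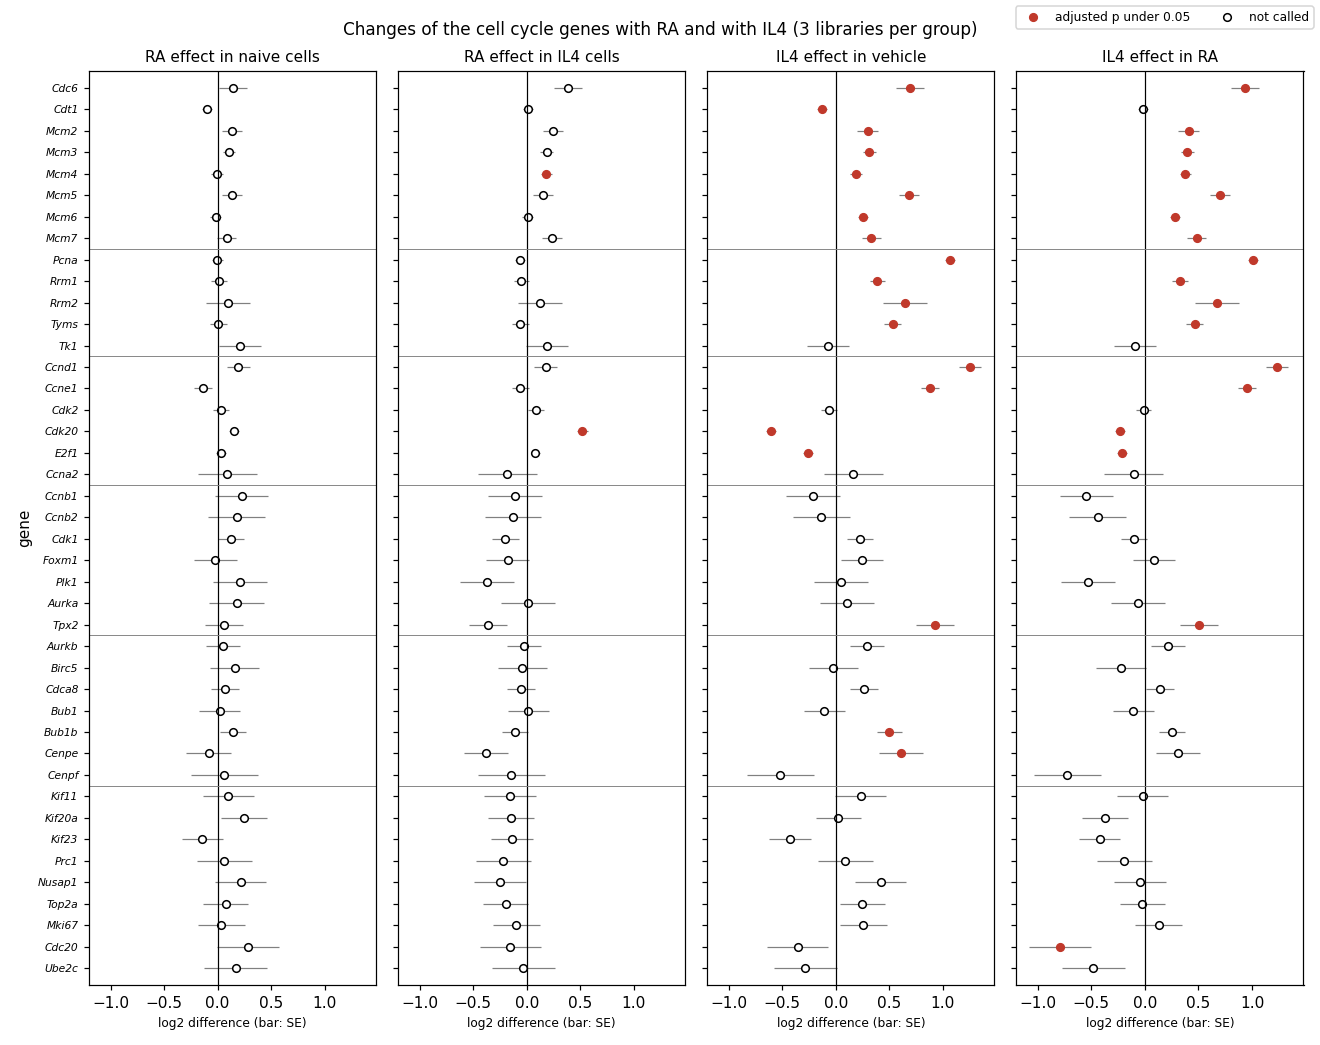
Log2 differences (horizontal axes, bars are SE) of the 42 genes (vertical axis, ordered by role) for the effect of RA in naive and in IL4 cells and of IL4 in vehicle and in RA, with filled red circles for an adjusted p under 0.05 in limma. The red circles of the IL4 panels lie mostly in the licensing, clamp and G1 rows, and the RA panels hold 2 in all, Mcm4 and Cdk20 in IL4 cells. The fit shown had no replicate block.

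In the model without replicate number few of these genes were called with RA for 6 h, and the shares of all tested genes called were small too. In IL4 cells the replicate block gave more calls, as given below. The megakaryocyte markers summed to 26.2 to 33.1 CPM in naive vehicle and 45.5 to 64.3 in naive RA. In IL4 cells the sums were 20.9 to 33.6 with vehicle and 41.8 to 58.2 with RA. Most of each sum was 1 gene, Pf4, at 4.65 to 4.98 log2 CPM in naive vehicle and 5.42 to 5.95 in naive RA. Ppbp was higher with RA too, but low (−1.20 to 0.01 and 0.62 to 0.96 in the naive groups). Itga2b, which did not pass the filter, overlapped between vehicle and RA. The part of these levels in the changes of the 42 genes was not tested. In naive cells limma called 0 of the 42 (background 3.24% higher and 3.03% lower), and 1 had an unadjusted p under 0.05, Cdk20. The median difference was 0.09 (that of all tested genes was within 0.01 of 0), 34 genes were positive, and single genes ran from −0.14 (Kif23) to 0.28 (Cdc20, SE 0.29). The intervals leave room for changes of some size in the mitotic genes, from −0.44 to 0.50 for Mki67 and from −0.34 to 0.90 for Cdc20 (95%), but are narrow for Pcna (−0.11 to 0.10) and Mcm6 (−0.12 to 0.08). Within the numbers, the median change of the 42 genes was 0.06 in number 2, 0.33 in number 3 and −0.10 in number 4, so its sign differed between numbers. The groups did not overlap for 1 gene that was higher and 1 that was lower (12.8% and 15.2% of all tested genes). When the naive vehicle library numbered 2 was left out, Ccnd1 was called (0.33, adjusted p = 0.0442). Without all 4 libraries numbered 2 limma called 0 members, with 2 at an unadjusted p under 0.05 (background 3.21% and 2.46%).

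In IL4 cells RA raised 2 of the 42 genes and lowered 0 (background 6.5% and 5.18%), and 6 had an unadjusted p under 0.05. The median difference was −0.055 and 16 genes were positive. The groups did not overlap for 7 genes that were higher and 0 that were lower (14.5% and 13.5% of all tested genes). Cdk20 (chromosome 13, 64432314 to 64441773, plus strand) encodes a kinase of the CDK family, also called cell cycle-related kinase. It was at 4.53, 4.51 and 4.52 log2 CPM in IL4 vehicle and 5.03, 4.98 and 5.11 in IL4 RA, with 3 of 3 RA libraries above all vehicle libraries and an increase of 0.52 (1.43-fold, SE 0.05, adjusted p = 7.39e-06). In naive vehicle it was at 5.12, 5.16 and 5.10 and in naive RA at 5.21, 5.30 and 5.32, again without overlap, but with a difference of 0.15 that did not pass (SE 0.05, adjusted p = 0.0856 in limma). IL4 lowered it by a difference of −0.61 in vehicle (0.657-fold, SE 0.05, adjusted p = 1.21e-07) and −0.23 in RA (0.85-fold, SE 0.05, adjusted p = 0.000824). From high to low, its group means were in the order naive RA, naive vehicle, IL4 RA and IL4 vehicle, and neighbours in that order did not overlap except naive vehicle and IL4 RA, whose libraries met at 5.10 and 5.11. The gene overlaps the antisense gene 1700015C15Rik in GENCODE vM21, and the strand setting of the quantification is not given in the sources used here, so reads of the pair cannot be told apart. Numbers 2, 3 and 4 differed by at most 0.04 for this gene.

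Mcm4 (chromosome 16, 15623897 to 15637400), a subunit of the helicase ring, was at 4.64, 4.64 and 4.71 log2 CPM in IL4 vehicle and 4.91, 4.76 and 4.86 in IL4 RA, without overlap, an increase of 0.18 (1.13-fold, SE 0.05, adjusted p = 0.0413). In naive vehicle it was at 4.48, 4.47 and 4.48 and in naive RA at 4.51, 4.51 and 4.38 (−0.01, adjusted p = 0.972). Its call was lost when any 1 of 9 libraries was left out (all 3 naive vehicle and all 3 IL4 vehicle libraries, the IL4 RA libraries numbered 2 and 4, and the naive RA library numbered 3), with adjusted p between 0.0507 and 0.126, and also with median centring (0.0623), quantile normalization (0.0602) or only the 2 groups compared (0.0883). All 8 licensing genes had a positive difference with RA in IL4 cells, from 0.01 (Mcm6 and Cdt1) to 0.39 (Cdc6, SE 0.13, adjusted p = 0.0725), with a median of 0.18. Of the motor, cytokinesis and exit genes 0 of 9 did, with a median of −0.15. The median over all tested genes was 0.002. In both lists only Mcm4 was called without the replicate block. Genes that share the same libraries are not separate observations, so their signs are a description. Signs also varied within numbers, as for Mcm6 (−0.04 in number 4), Mki67 (0.13 in number 2) and Ube2c (0.23 in number 3).

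Same-numbered libraries of the 2 IL4 groups deviated together (correlations above 0.1), and with the replicate block 7 genes were called with RA, 4 higher and 3 lower (background 7.6% and 6.13%). The 4 were Cdk20, Mcm3 (0.19, adjusted p = 0.0184), Mcm4 (0.18, adjusted p = 0.046) and Mcm7 (0.24, adjusted p = 0.0164). Those lower were Cdk1 (−0.20, adjusted p = 0.0253), Tpx2 (−0.36, adjusted p = 0.0215) and Cenpe (−0.38, adjusted p = 0.0465). Mcm7 lies over Cops6 and Ap4m1 on the opposite strand. Within the numbers, the median change of the 42 genes was −0.02, −0.01 and −0.05. Without all 4 libraries numbered 2 only Cdk20 was called (background 6.97% and 6.69%).

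The interaction asks whether RA acted differently in cells treated with IL4 beforehand, as the change with RA after IL4 less the change in naive cells. It was called for Cdk20 alone (0.37, SE 0.07, adjusted p = 0.0325), where 0.338% of all tested genes were higher and 0.0413% lower. Mcm4 was the other member at an unadjusted p under 0.05 (0.19, SE 0.07, adjusted p = 0.526). The call of Cdk20 was lost in 10 of the 12 fits that left out 1 library (adjusted p from 0.0596 to 0.093, all but those without the IL4 vehicle library numbered 4 or the IL4 RA library numbered 3), while its value stayed between 0.34 and 0.39 in those 10. Without all 4 libraries numbered 2, limma called 0 members, 8 had an unadjusted p under 0.05 (background 0.116% and 0.0165%), and Cdk20 was at 0.36 (adjusted p = 0.146).

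Other genes of the cell cycle, in lists that hold none of the 42, gave the surroundings of these changes. Their counts are read against the shares of all tested genes, 30.5% higher and 29.6% lower with IL4 in vehicle and 29% and 26.7% in RA. With IL4 in vehicle, 30 of 50 further replication genes rose and 6 fell, with a median of 0.36, and in RA 33 rose and 2 fell, with a median of 0.35. Examples are the fork protection gene Timeless (1.97 in vehicle, SE 0.13, adjusted p = 2.51e-08), the origin firing factor Mcm10 (1.29, adjusted p = 0.000114) and the kinase gene Cdc7 (1.03, adjusted p = 0.000331). Of 55 kinetochore, spindle and cytokinesis genes, 9 rose and 0 fell in vehicle, and 5 rose and 2 fell in RA, in both cases a smaller share than over all genes in either direction, with Cenpm (1.39, adjusted p = 0.00134) and the separase gene Espl1 (0.70, adjusted p = 0.000669) among those higher in vehicle. Aspm (−0.84, adjusted p = 0.0254) and Ckap2 (−0.81, adjusted p = 0.00464), both of the spindle, fell in RA. The call of Aspm was lost without the naive RA library numbered 2 or 3 or the IL4 RA library numbered 3 or 4 (adjusted p from 0.0522 to 0.113).

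The counts of the remaining lists are given as descriptions beside the same shares. Of 20 G1 cyclins, CDKs and CDC25 phosphatases, 8 rose and 2 fell with IL4 in vehicle. The D type cyclin Ccnd2 was at 2.06, 2.52 and 2.08 log2 CPM in naive vehicle and 4.49, 4.26 and 4.02 in IL4 vehicle (2.04, SE 0.16, adjusted p = 1.19e-07), and Myc, a transcription factor of cell growth, at 3.55, 2.99 and 3.35 and 4.98, 5.14 and 5.08 (1.77, SE 0.12, adjusted p = 4.69e-08). Of 15 inhibitors and quiescence regulators 5 rose and 3 fell in vehicle. Cdkn2b (p15) rose by 2.78 (SE 0.13, adjusted p = 7.89e-10) and Cdkn1a (p21) by 1.66 (SE 0.12, adjusted p = 5.72e-08), while Cdkn1c (p57) fell, at −1.25 (SE 0.10, adjusted p = 2.65e-07), and so did Cdkn1b (p27), at −0.37 (SE 0.07, adjusted p = 0.000387). Of 20 pocket protein, E2F and MYB genes, 7 rose and 4 fell, with Rbl1 (p107) at 0.91, E2f8 at 0.94 and Mybl2 (B-MYB) at 0.85. Of 28 DNA damage and repair genes 10 rose and 3 fell, and of 21 genes of CSF1 and growth factor signalling 9 rose and 9 fell, the receptor gene Csf1r at −0.46 (adjusted p = 3.78e-06) and its ligand gene Csf1 at 2.37 (adjusted p = 1.25e-09).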

How the data were processed

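RNA of 12 libraries was sequenced from 1 end for 101 cycles. Per the submitters' processing notes, bcl2fastq 2.20, Salmon 0.13.1 and edgeR 3.32.1 were used with build GRCm38. The deposited values are log2 CPM, which the authors scaled with TMM factors. Their lowest value, −3.67, is shared by all libraries. Depth, estimated from the steps between the lowest values of each library, was 30.52 to 48.15 M reads, so precision is lowest for genes of few reads.

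The 12116 genes that reached 1 CPM in 3 or more libraries were tested with limma 3.58.1 (R 4.3.3). The model had a mean for each group, an intensity trend and two-sided tests, used all 12 libraries, with Benjamini-Hochberg adjustment over these genes within each contrast. Genes with an adjusted p under 0.05 were called. Differences between replicate numbers came from the same model with number added. The model was tested on simulated data.

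The members, lists and alternatives were chosen with earlier results of these data known. Values in every library are given for members called with RA or in the interaction, for the 4 largest called increases and decreases in each IL4 contrast, for the 4 widest ranges between numbers, and for the member of highest mean in each role (by CPM, which is not per length). In each pathway list up to 3 called genes per contrast were eligible to be named, and Cdkn1a, Cdkn1b, Myc, Csf1r, Ccnd2 and Ccnd3 always were.

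Whether the numbers pair libraries was checked by correlating deviations from the group means. Same-numbered libraries correlated at 0.128 to 0.245 between the IL4 groups and at 0.140 to 0.209 between the vehicle groups, all above 0.1, so the numbers were taken to pair these, a pairing that the labels do not state. Between the naive groups (0.0706 to 0.511) and the RA groups (0.0895 to 0.186) 1 value was below 0.1. Gene positions and overlaps are from GENCODE vM21, and promoters from RefSeq (GRCm38.p6).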

Additional observations from a re-analysis of the deposited data

Results flagged for a closer look

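The RA effect on Cdk20 differed between IL4 and naive cells in limma's interaction test, at 0.37 (log2, SE 0.07, adjusted p = 0.0325). It was higher with RA in 3 of 3 same-numbered pairs of both kinds of cells, by 0.49, 0.47 and 0.59 in IL4 cells and by 0.09, 0.14 and 0.22 in naive cells for the numbers 2, 3 and 4. Over the fits that left out 1 library the count of members called in the interaction was 0 or 1.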

How the results depend on the processing

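The median changes of the 42 genes moved by less than the spread between replicates under every alternative run. That spread was 0.22 (the SD of the member median within groups), and it includes the differences between replicate numbers. It was larger than the medians themselves in all contrasts but IL4 in vehicle (0.24), so it cannot show that they were stable. With 1 library left out the medians ran from −0.03 to 0.21 (RA in naive cells), −0.13 to 0.04 (RA in IL4 cells), 0.10 to 0.35 (IL4 in vehicle), −0.09 to 0.14 (IL4 in RA) and −0.21 to 0.01 (interaction). The counts of called members then ran from 0 to 1, 1 to 3, 17 to 20, 15 to 20 and 0 to 1, and from 6 to 25 for replicate number. The shares of all tested genes called ran from 3.43% to 7.3%, 7.38% to 12.4%, 54.6% to 61.6%, 50.4% to 56.1% and 0.14% to 0.553%. For replicate number they ran from 0.611% to 2.06%. Counts under other alternatives moved by over 1.5 times in these cases. Shares of all tested genes called are in brackets. For RA in naive cells, library weights gave 1 (16.1%). For RA in IL4 cells, median centring (12.1%) and quantile normalization (11.5%) gave 1 each, library weights 5 (14.9%) and the replicate block 7 (13.7%). Leaving out the 4 libraries numbered 2, chosen after seeing the data, gave 1 (13.7%). The replicate block gave 29 for IL4 in vehicle (62.4%) and 27 for IL4 in RA, 17 higher and 10 lower (57.7% of all tested genes were called), where the numbers did not pass the pairing rule. Added as lower in RA were Ccnb1, Ccnb2, Plk1, Kif20a, Kif23, Ube2c and Cenpf. It called 0 members for RA in naive cells (8 at an unadjusted p under 0.05) and 1 in the interaction, as without it. Without the intensity trend the interaction had 0 members (0.124%) and replicate number 7 (0.685%). Without the libraries numbered 2 both had 0 (0.132% and 0.38%). The cause was not tested. No called value changed sign. The uncalled medians did, in both RA contrasts, IL4 in RA and the interaction when 1 library was left out, and that of IL4 in RA (−0.02) was 0.06 without the libraries numbered 2 and 0.01 with library weights. Of 6686 values of single genes under the alternatives, 6498 kept their side of the threshold, 119 lost it and 69 gained it. Fits on only the groups compared were not run for the interaction or replicate number, nor the block for replicate number. Depth limits the low genes, with about 77 to 174 reads for Cdc6 and 85 to 345 for Cenpf.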

Other observations

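Outside the 42 genes, a few cell cycle genes changed with RA. Lig1, which encodes the ligase that seals Okazaki fragments, was at 4.11, 3.98 and 4.09 log2 CPM in naive vehicle (numbers 2, 3 and 4) and 4.74, 4.83 and 4.59 in naive RA, and at 4.32, 4.35 and 4.26 in IL4 vehicle and 5.10, 4.90 and 4.97 in IL4 RA. It rose in 3 of 3 same-numbered pairs of both, by 0.66 in naive cells (1.58-fold, SE 0.07, adjusted p = 5.29e-05 in limma) and by 0.68 in IL4 cells (1.60-fold, SE 0.07, adjusted p = 2.62e-05). Of the 50 replication genes it was the 1 called in naive cells (background 3.24% higher and 3.03% lower). With Pola2 (0.27, adjusted p = 0.0136), a subunit of the primase complex, it made the 2 called in IL4 cells (background 6.5% and 5.18%). The call of Pola2 was lost without the IL4 vehicle library numbered 3 (adjusted p = 0.065).

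The inhibitor gene Cdkn1a was at 8.54 to 8.78 in the IL4 vehicle libraries numbered 4 and 3, higher still in number 2, and at 8.30, 8.26 and 8.17 in IL4 RA, a difference of −0.53 (SE 0.12, adjusted p = 0.0113) whose call was lost without the IL4 vehicle library numbered 2 (adjusted p = 0.0511). In naive cells it differed by −0.14 and did not pass. Rbl1 fell with RA in both, at −0.20 in naive cells (adjusted p = 0.024) and −0.28 in IL4 cells (adjusted p = 0.00162). The naive call was lost without the vehicle library numbered 2 or 4 or the RA library numbered 3 or 4 (adjusted p from 0.061 to 0.12). The D type cyclin Ccnd3 was lower with RA, at −0.25 in naive cells (adjusted p = 0.0154) and −0.29 in IL4 cells (adjusted p = 0.00357), and the phosphatase gene Cdc25b higher, at 0.30 (adjusted p = 0.0154) and 0.33 (adjusted p = 0.00594). Their naive calls were lost without the vehicle library numbered 2 (adjusted p = 0.0661 and 0.0593) or the RA library numbered 3 (0.0736 and 0.071), and that of Cdc25b also without the vehicle library numbered 4 (0.0827) or the RA library numbered 4 (0.0696). Ccnd2, also a D type cyclin, was higher with RA in naive cells (0.61, SE 0.16, adjusted p = 0.036). In IL4 cells it did not pass (0.33, adjusted p = 0.218). Its naive call was lost without vehicle library 2 or 4 or RA library 3 or 4 (adjusted p from 0.109 to 0.16). The kinase gene Cdk6 was lower in naive cells (−0.28, adjusted p = 0.0214), a call lost without vehicle or RA library 2 or 4 (0.052 to 0.0983). Fos, an immediate early gene downstream of growth factor signals, was lower with RA in naive and IL4 cells, by differences of −0.50 (adjusted p = 0.00127) and −0.56 (adjusted p = 0.000311). The kinetochore, spindle and cytokinesis list had 0 of 55 genes called by limma, without a replicate block, in either RA comparison. The background was 3.24% higher and 3.03% lower in naive cells, and 6.5% and 5.18% in IL4 cells.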
